A study of Mus musculus with 16 samples.

Results

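The ChR2-flfl control pups are the baseline of a mouse model of pain in early life, and their cortex at postnatal day 7 (P7) is described here on its own, gene by gene, with no comparison of genotypes. They were selected by their genotype label and are 8 of the 16 samples in the series. All 8 pups were on a C57BL6 background and carried the Ai27D construct in the Rosa26 locus, in which a floxed STOP precedes a fusion of the light-gated channel channelrhodopsin-2 (ChR2) and the red fluorescent protein tdTomato. They carried no Cre recombinase, so the construct stayed silent by design, and they were litter mates of the Avil-ChR2 pups. With their litters they were exposed to blue light for 1 h a day from P1 to P5 and were killed at 7 days of age. By the labels, 4 were female (pups 27, 32, 33 and 36) and 4 were male (pups 26, 35, 41 and 42). The litter of each pup was not given in the sources used here, so pups may share a dam, and the spread between pups is a spread between animals of unknown relation.

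In the first postnatal week the mouse cortex has nearly completed neurogenesis, while axons and dendrites are still growing and most synapses have yet to form. Astrocytes and oligodendrocyte precursors are multiplying, and myelin has barely begun to be laid down. Many receptor, channel and transporter families change their leading subunit during this period, so that an RNA profile at P7 holds fetal and mature forms side by side.

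RNA-seq values were read counts scaled to a common library total (CPM, normalized with TMM factors) for 36930 entries, each entry being 1 gene or predicted gene in the annotation the study used. The values were whole multiples of what 1 read was worth, which gave back the reads behind them: 48162598 to 48707429 reads in 7 pups and 30549126 in pup 32. In pup 32 a level of 3 reads was 0.097 CPM, and in the other 7 pups it was 0.0618 to 0.0626 CPM. Between 23246 and 24262 entries had reads in a pup, the lowest number in pup 32. Pups 26, 27 and 33 had 24106 to 24262 and pups 35, 36, 41 and 42 had 23379 to 23458, so these ranges did not overlap. In all 8 pups 20235 entries had reads, 27441 had reads in at least 1 pup and 9489 had none in any. A mean of at least 1 CPM was reached by 15207 entries, of at least 10 CPM by 10459, of at least 100 CPM by 2430 and of at least 1000 CPM by 70. The 10 entries with the highest means held 3.68 to 4.06% of the normalized reads of a pup, the top 100 held 15.1 to 15.7% and the top 1000 held 46.4 to 46.9%.

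The most abundant messages came from mitochondria and from the cytoskeleton of growing neurites. Of the 30 entries with the highest mean, 9 were protein genes of the mitochondrial genome, and the nuclear ones were led by tubulins, microtubule-associated proteins and collapsin response mediators. COX1, a subunit of cytochrome c oxidase, had the highest mean at 8142 ± 456 CPM (SD, n = 8), with 7277 in pup 26 as the lowest and 8795 in pup 33 as the highest value. Tuba1a, the alpha-tubulin of newborn neurons, followed at 4474 ± 194 CPM, from 4163 in pup 41 to 4705 in pup 26. The lowest COX1 value and the highest Tuba1a value were thus in the same pup. Dpysl3, a collapsin response mediator of growth cones, ranged from 3212 to 3593 CPM with a median of 3337. Map1b, which stabilizes microtubules in extending axons, ranged from 2771 in pup 32 to 3992 in pup 26, and its coefficient of variation (CV, SD over mean) of 11% was the largest of the 30. Beta-tubulins followed with Tubb2b at 2398 ± 125 CPM, Tubb5 at 2395 ± 95.3 CPM and Tubb2a at 1970.0 ± 116 CPM. Mapt, which encodes tau, had a mean of 2381 ± 106 CPM and Stmn2, a tubulin-binding protein of growth cones, 2045 ± 70.4 CPM. Calcium signalling was represented by the calmodulin-stimulated cyclase Adcy1 (2344 ± 147 CPM). Mef2c, a transcription factor of maturing cortical neurons, stood among them at 2079 ± 187 CPM, from 1876 in pup 26 to 2451 in pup 41. Meg3, an imprinted long noncoding RNA, reached 1765 ± 137 CPM.

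**Figure D1:**
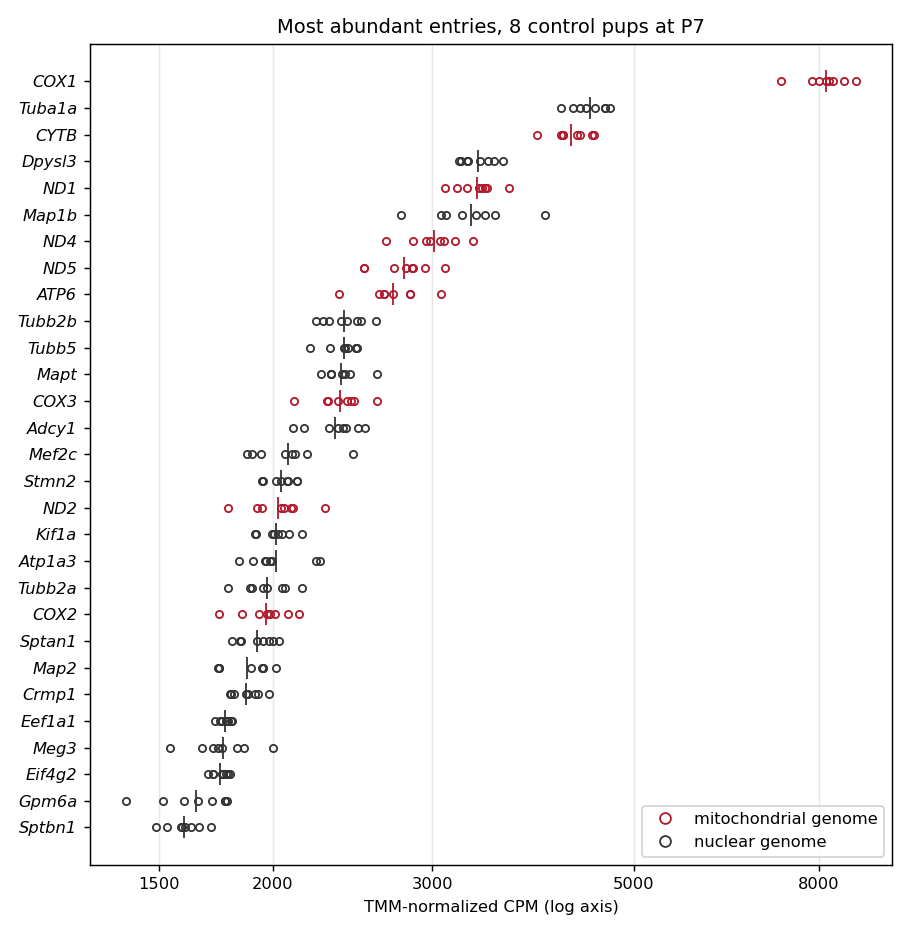
TMM-normalized CPM (log axis) of 29 of the 30 entries with the highest mean, ordered by mean, in the 8 control pups. Each circle is 1 pup and each tick the mean of 8. Red marks the mitochondrial genome, led by COX1 at 8142 CPM, and dark grey the nuclear genome, led by Tuba1a at 4474 CPM.

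CPM is not corrected for length, so long messages rank high in it. Divided by the length of the longest annotated transcript, COX1 still led, at 5269.7 CPM per kb, and 6 of the 7 highest entries were mitochondrial. Among nuclear genes Tuba1a (2481 CPM per kb), Tubb2a (1224), Tubb2b (1099) and the elongation factor gene Eef1a1 (988) came first on this scale. Calm2 (951), the short neuronal noncoding RNA Bc1 (920.4), Tubb5 (904), Tubb3 (846), the actin-sequestering thymosin gene Tmsb4x (781) and the growth cone gene Gap43 (759.8) completed the first 10. COX1 and, among nuclear genes, Tuba1a thus led on both scales, while Map1b was at 280.2 CPM per kb. A second entry named Myo3a on chromosome 2 (start 22542413, end 22618252) had 1596 ± 115 CPM, whereas the first entry of that name had 1.10 ± 0.127 CPM. The second entry covers pseudogenes of mitochondrial genes in the GENCODE annotation, so its reads cannot be assigned to Myo3a, a myosin of sensory hair cells.

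Promoter sequence was read from RefSeq (build GRCm38.p6) for 24957 entries, as 250 bases before and 50 bases after the annotated start. CG dinucleotides, which lie densely in the promoters of genes used in most cells, were counted in those 300 bases. The median was 8 over all entries, 3 over the 4652 entries without reads, 20 over the 11791 entries with a mean of at least 1 CPM and 23 over the 100 most abundant. Promoters of entries at 1 CPM or more thus held more CG than those of entries listed without reads. Their median GC content was also higher, at 60.7% against 45.7%. The letters TATAA, the core of the TATA box, were searched on both strands in the 120 bases before the start, and occurred in 12.3% of all promoters, 23.1% of those without reads, 5.38% of those with a mean of at least 1 CPM and 10 of the 100 most abundant. The letters CCAAT, searched in the same way with no overlap with TATAA, occurred in 22.5% of all promoters, 19.6% of those without reads, 24.9% of those with a mean of at least 1 CPM and 19 of the 100 most abundant. The 120 bases before the start are shown 5′ to 3′ for 6 genes that stand for the patterns described below, with TATAA and CCAAT in capitals: Tuba1a and Eef1a1 for abundance, Nploc4 for the smallest spread, Ptgds and Hbb-bs for large spread between pups, and Fos for activity-dependent genes.
Tuba1a, chr15:98953502-98953621, minus strand: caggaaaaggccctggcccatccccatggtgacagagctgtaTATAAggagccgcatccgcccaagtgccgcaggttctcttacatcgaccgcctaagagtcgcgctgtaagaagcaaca
Eef1a1, chr9:78481725-78481844, minus strand: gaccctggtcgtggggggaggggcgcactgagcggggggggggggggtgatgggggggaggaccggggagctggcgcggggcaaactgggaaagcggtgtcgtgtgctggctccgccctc
Nploc4, chr11:120437701-120437820, minus strand: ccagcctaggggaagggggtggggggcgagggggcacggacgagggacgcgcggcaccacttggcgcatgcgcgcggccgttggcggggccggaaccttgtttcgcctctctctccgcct
Ptgds, chr2:25469750-25469869, minus strand: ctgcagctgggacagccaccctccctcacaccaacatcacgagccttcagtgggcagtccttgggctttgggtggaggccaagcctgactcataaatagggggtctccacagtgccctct
Hbb-bs, chr7:103827929-103828048, minus strand: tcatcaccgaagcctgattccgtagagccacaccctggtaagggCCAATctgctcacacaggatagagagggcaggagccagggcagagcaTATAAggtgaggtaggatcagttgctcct
Fos, chr12:85473770-85473889, plus strand: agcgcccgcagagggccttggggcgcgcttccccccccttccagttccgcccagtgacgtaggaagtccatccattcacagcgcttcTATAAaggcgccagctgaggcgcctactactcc
In Tuba1a the TATAA begins 78 bases before the annotated start, in Hbb-bs 29 bases and in Fos 33 bases, and CCAAT occurs only in Hbb-bs of these 6, beginning 76 bases before the start. A match of letters is a description and no evidence of binding. TATAA holds only A and T, and its frequency was not corrected for base composition. Differences between the groups are therefore not read as differences in TATA boxes. The 300 bases around the starts held 28 CG dinucleotides in Nploc4, 22 in Eef1a1, 20 in Fos and 16 in Tuba1a, but 2 each in Ptgds and Hbb-bs. Ptgds and Hbb-bs do not represent variable entries in this. At 10 CPM or more the median was 15 over the 200 entries with the highest CV and 23 over the 200 with the lowest.

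Protein-coding entries took 97.3 ± 0.075% of the normalized reads and long noncoding RNAs 2.07 ± 0.0523%. Only 1073 of 10315 long noncoding entries reached a mean of 1 CPM, and Meg3, Rian (892 ± 52.6 CPM) and Snhg11 (727 ± 91.0 CPM) led them. The 13 protein genes of the mitochondrial genome took 3.24 ± 0.188%, against 0.683 ± 0.0265% for 86 nuclear genes of oxidative phosphorylation, led by the ATP synthase gene Atp5b at 852 ± 28.7 CPM. The 83 cytosolic ribosomal protein genes took 0.472 ± 0.0152% and 17 tubulin genes 1.54 ± 0.0635%. The tubulins alone thus took more reads than the ribosomal proteins or the nuclear respiratory chain in every pup. Some abundant housekeeping genes have many near-identical copies in the genome, among which reads can be split. The levels of such genes and the ribosomal protein share are therefore uncertain, and the size of this effect was not tested. Gapdh had 54.6 ± 2.68 CPM, Rps27 8.45 ± 0.979 CPM and Actb 1134 ± 110.2 CPM.

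By Gene Ontology names, which overlap one another, 1190 entries with a term on synapses took 17 ± 0.14% of the reads, 894 entries on axons 12.9 ± 0.133% and 1791 on the cytoskeleton or microtubules 19 ± 0.204%. Entries named for mitochondria took 12.7 ± 0.104%, for transcription factor activity 6.50 ± 0.0487%, for channel activity 3.21 ± 0.0436%, for the extracellular matrix 4.06 ± 0.0472% and for immune or inflammatory processes 3.02 ± 0.0203%. The same gene can stand behind several of these shares, since Mef2c and Map1b each carry more than 1 of the terms. Classes that should be largely silent in cortex had few entries at 1 CPM or more, with exceptions. None of the 39 Hox entries, which pattern the hindbrain and spinal cord, reached a mean of 1 CPM, and the highest value in any pup was 1.09 CPM for Hoxa3 in pup 26, against at most 0.162 CPM in the other 7. Of 1102 olfactory receptor entries 201 had any reads and 3 reached a mean of 1 CPM, led by Olfr32 at 10.4 ± 0.618 CPM. Of 326 vomeronasal receptor entries 7 reached it, led by Vmn2r53 at 35.4 ± 2.05 CPM. Of 46 keratin entries 6 reached it, led by Krt222 at 30.6 ± 2.41 CPM. None of the 490 antigen receptor gene segments had reads in any pup. Igh, the entry of the immunoglobulin heavy chain locus, overlaps other entries and had 37.1 ± 0.42 CPM. The zeros of the segments are therefore not read as absence.

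Functional lists were summed in the same way as the marker lists below. The 20 genes of growing axons summed to 25407 ± 897 CPM, with 24371 in pup 32 and 27153 in pup 26 as the extremes, and no member had a CV above 20%. Gap43, the growth cone phosphoprotein, ranged from 1004 in pup 41 to 1108 CPM in pup 32, and Dcx, the microtubule protein of migrating neurons, from 939 to 1177 CPM. Stmn1, a tubulin-binding phosphoprotein of immature neurons, was steadier, at 662 to 709.7 CPM. The 19 presynaptic vesicle genes, all at or above 1 CPM, summed to 9754 ± 346 CPM. Among them were Syt1, the calcium sensor of vesicle fusion (1039 to 1187 CPM), Snap25 of the fusion complex (627 to 766 CPM) and Syp, a vesicle membrane protein (644 to 787 CPM), each lowest in pup 26. The 14 postsynaptic scaffold and kinase genes summed to 5433 ± 235 CPM, highest in pup 35 (5911 CPM). Their scaffold Dlg4, also known as PSD-95, ranged from 711 to 845 CPM and the kinase Camk2b from 964 to 1082 CPM, both with their highest value in pup 35.

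The cell types of cortex were checked by marker lists, each summed per pup. A level in whole tissue does not tell fewer cells of a type from less RNA per cell, and the sums of different lists depend on which genes they hold and on their lengths, so they are compared between pups and not between lists. All 12 glutamatergic neuron genes were at or above 1 CPM, and their sum varied least of all lists, 1749 to 1828 CPM with a CV of 1.30%. Single members varied more, and the vesicular glutamate transporter gene Slc17a7 ranged from 417 to 528 CPM. Cux2 of the upper layers was highest in pups 35 and 41 (179 and 176 CPM against 124 to 162 CPM), whereas Tbr1 of the deep layers was lowest in the same pups (89.4 and 80.3 CPM against 109 to 118 CPM). The even sum therefore covered members that moved in opposite directions. Of 14 interneuron genes 12 reached 1 CPM. The GABA-synthesizing enzyme Gad1 had 99.3 ± 3.41 CPM, and among the subtype markers Sst ranged from 27.4 in pup 41 to 54.1 in pup 27, while Pvalb, which appears later in development, was at 0.143 ± 0.0681 CPM.

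Astrocyte genes summed to 2815 to 3143 CPM in 7 pups and to 2419 in pup 26. The glutamate transporter Slc1a2 was lowest in pup 26 at 692 CPM, against 808 to 929 CPM elsewhere, and glutamine synthetase (Glul) was lowest there at 385 CPM, against 469 to 519.8 CPM. The transporter Slc1a3 differed less, at 370.1 CPM in pup 26 and 389.5 to 408 CPM in the others. Oligodendrocyte precursor genes summed to 285 ± 14.7 CPM, with the growth factor receptor Pdgfra at 122 ± 4.26 CPM. The 10 myelin genes summed to 229 ± 33.5 CPM, from 186 in pup 41 to 289 in pup 27, and 6 of the 10 had a CV above 20%. Mag, an adhesion molecule of early myelin, ranged from 1.43 to 4.56 CPM and Mbp, the myelin basic protein gene, from 58.3 to 94.8 CPM. Both were highest in pup 27, and pups 41 and 42 had the lowest values of each. Opalin, a gene of mature oligodendrocytes, had at most 0.041 CPM. The other 9 genes of the list had means of at least 1 CPM. Among them the myelin gene Mog had 12.4 CPM in pup 26 and 9.95 CPM in pup 35. The myelin sum thus varied more between pups than the precursor sum, with a CV of 14.6% against 5.14%.

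Microglial genes summed to 300.8 ± 31.0 CPM, endothelial genes to 333 ± 17.2 CPM and mural cell genes to 263 ± 15.8 CPM. The microglial fractalkine receptor gene Cx3cr1 had 16 CPM in pup 26 and 21.2 to 25.2 CPM in the others. Claudin 5 (Cldn5), the tight junction protein of brain endothelium, ranged from 32.6 to 44.0 CPM. Genes of progenitors and young neurons summed to 2051 ± 131 CPM, of which Dcx (1051 CPM), Cd24a (454 CPM) and the radial glial lipid carrier Fabp7 (356 CPM) made up most. Neurog2, the proneural factor of dividing progenitors, was at 0.0299 ± 0.0186 CPM, under the level of 3 reads. The 12 genes of proliferating cells were all at or above 1 CPM and summed to 120.9 ± 6.87 CPM, with Mki67 at 16.9 to 21.0 CPM.

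**Figure D2:**
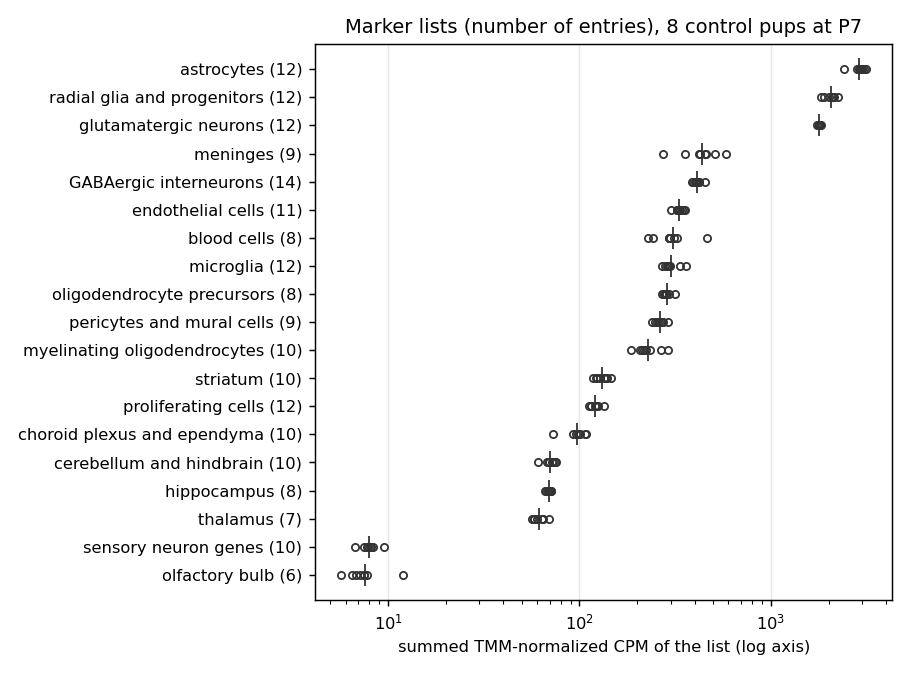
Summed TMM-normalized CPM (log axis) of each marker list, with the number of its entries in brackets, in the 8 control pups, ordered by mean. Each circle is 1 pup and each tick the mean of 8. The glutamatergic sums lie closest together (1749 to 1828 CPM), and the meningeal sums spread from 272.6 to 579 CPM.

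Neighbouring tissues were examined for carry-over at dissection. Choroid plexus genes summed to 96.9 ± 11 CPM, but 89.9 of this came from Enpp2, which oligodendrocyte precursors and other cells also make. Ttr, the defining transthyretin message of choroid plexus, had 0.118 ± 0.132 CPM and 0 in 2 pups. Cerebellar and hindbrain genes summed to 70.3 ± 4.61 CPM, mostly Calb1 (26.1 CPM), Cbln1 (25.1 CPM), Zic1 (11.1 CPM) and Zic2 (7.54 CPM), which are not restricted to the cerebellum. The other 6 of the 10, among them Gabra6 of cerebellar granule cells and Atoh1 of their precursors, had at most 0.412 CPM in any pup. Striatal genes summed to 131 ± 9.93 CPM, and the deep cortical layers share several of them, including Drd1 at 14.0 ± 2.77 CPM. Adult striatal neurons are also marked by Drd2, which had 1.69 ± 0.455 CPM, highest in pup 32 (2.59 CPM). Olfactory bulb genes summed to 5.69 to 7.73 CPM in 7 pups and 11.9 CPM in pup 27. Hippocampal genes summed to 69.0 ± 2.00 CPM, with 6 of 8 at or above 1 CPM. Thalamic genes summed to 61.7 ± 4.29 CPM, with 6 of 7 at or above 1 CPM. Sums in whole tissue do not tell carry-over from expression in cortex, and carry-over was not tested. Of the 10 genes of peripheral sensory neurons 7 were under 1 CPM. Avil, whose promoter drives Cre in the other genotype, was at 1.07 ± 0.199 CPM in these controls, and Scn10a of nociceptors at 0.082 ± 0.0536 CPM.

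Immediate early genes, which neurons transcribe within minutes of activity, differed widely in level. Their 16 members summed to 254 to 271 CPM in 7 pups and 225 CPM in pup 41. For reference, the median over all entries with a mean of at least 1 CPM was 23.9 CPM. Fos ranged from 2.08 to 2.61 CPM, Arc from 4.14 to 5.81 CPM and Npas4 from 10.2 to 13.5 CPM. Egr3 (41.9 to 59.4 CPM) and Egr1 (26.6 to 39.7 CPM) were each lowest in pup 26 and highest in pup 35. Fos had a CV of 6.94%, but other members varied far more, with CVs of 51.4% for Nr4a2 (2.80 to 15.1 CPM), 35.2% for Fosb, 33.2% for Egr4 and 22.3% for Junb. Circadian clock genes summed to 923 ± 34.5 CPM with the highest pup 1.12 times the lowest, and genes of the glucocorticoid response to 350.1 ± 10.8 CPM. Interferon response genes summed to 16.6 ± 1.42 CPM. Genes of hypoxia and glycolysis summed to 928 ± 40.6 CPM, those of heat shock and protein folding to 1517 ± 48.2 CPM and actin-binding genes to 3322 ± 99.6 CPM, each with the highest pup at most 1.14 times the lowest.

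A level of 0 in this table does not always mean that a gene was silent. Of 370 genes on the marker and functional lists 12 had no reads in any pup, and all 12 overlap another entry. Sox2, the transcription factor of neural progenitors, lies inside the entry of its long noncoding host Sox2ot, which had 33.8 ± 2.00 CPM, and P2ry12 of microglia, Stmn3 of neurons and Ogn of meninges were likewise at 0 within larger entries. Protein-coding entries that lay wholly inside another entry had no reads in 155 of 181 cases (85.6%) on the same strand and in 451 of 499 (90.4%) on the other strand. Where an entry overlapped another without lying inside it the share was 0.623%, and where it overlapped none 7.51%. How the study's software shared reads between overlapping entries was not given in the sources used here. A 0 of a nested gene is therefore not read as absence.

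Developmental pairs were compared as log2 ratios of normalized reads per kb of the longest transcript within each pup, which cancels any scaling of the pup. Each of 16 pairs was tested by a two-sided exact permutation test that flips the sign of the 8 ratios. The smallest p that 8 pups allow is 0.00781, reached by 14 pairs, and after Benjamini-Hochberg adjustment over the 16 pairs this is 0.00893. The test asks only whether both genes of a pair have equal reads per kb, which depends on the lengths used. Since the pairs were chosen for ratios known to change with maturation, a small p does not measure a stage of development. Grin2b, the NMDA receptor subunit of the young brain, was at 32.0 ± 4.93 CPM per kb and Grin2a, the subunit that joins it with maturation, at 2.39 ± 0.289 CPM per kb. The log2 ratio was 3.74 ± 0.13 (SD, n = 8), with 3.60 as its lowest and 3.91 as its highest value. The sodium channel gene Scn2a exceeded Scn1a by 2.64 ± 0.11, and the early form Scn3a exceeded Scn1a by 0.77 ± 0.08. Postnatal forms were therefore present but lower in this receptor and this channel family.

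In the chloride cotransporters, the Dlg scaffolds and the vesicular glutamate transporters, the later form had more reads per kb. Only P7 was sampled, so a change with age was not observed. The chloride exporter gene Slc12a5 (51.5 ± 3.75 CPM per kb) exceeded the importer Slc12a2 (7.86 ± 0.313 CPM per kb) in all 8 pups, with a log2 ratio of importer over exporter of -2.71 ± 0.13. The postsynaptic scaffold Dlg4 exceeded the earlier Dlg3, at a log2 ratio of Dlg3 over Dlg4 of -1.44 ± 0.06. Slc17a7, the main cortical vesicular glutamate transporter, exceeded Slc17a6 at a log2 ratio of the latter over the former of -3.49 ± 0.22. The kinase pair is not counted with these. Its subunit Camk2b exceeded Camk2a by 0.68 ± 0.15, which fell to 0.12 when the length of all exons together replaced the longest transcript.

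The largest ratios joined a gene with a partner read at a far lower level, such as Pvalb at 0.146 and Vamp1 at 1.82 CPM per kb. Sst exceeded Pvalb by 8.80 ± 0.55, Vamp2 of central synapses exceeded Vamp1 by 7.64 ± 0.15, and the DNA methyltransferase Dnmt3a of neurons exceeded the embryonic Dnmt3b by 6.07 ± 0.15. Stmn2 exceeded the neurofilament gene Nefl, a mark of mature axons, by 3.75 ± 0.17, and Tubb3 of neurons exceeded Tubb4a by 2.02 ± 0.08. In 2 pairs the pups did not all lie on one side. Pdgfra exceeded Mbp in 7 of 8 pups (log2 ratio 0.25 ± 0.23, exact permutation p = 0.0312) and the AMPA receptor gene Gria2 exceeded Gria1 in 6 of 8 (0.13 ± 0.13, exact permutation p = 0.0312). The latter turned to -0.33 with the length of all exons together, so its direction depends on the choice of length. Adult beta-globin Hbb-bs had 144 ± 32.7 CPM per kb and the embryonic Hbb-bh1 0.0255 ± 0.0505 CPM per kb with 0 in 6 pups, and this pair was not tested.

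**Figure D3:**
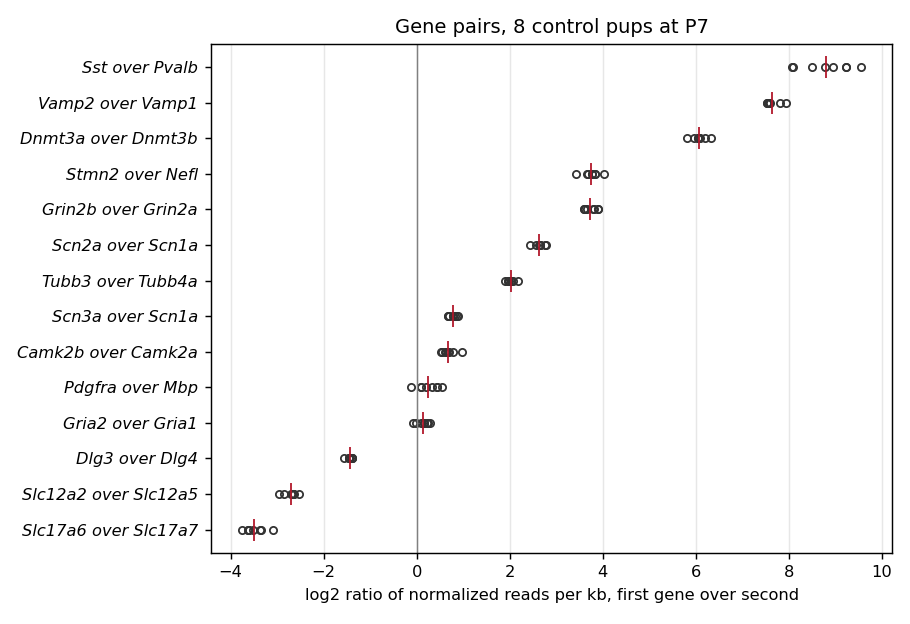
Log2 ratio of normalized reads per kb of the longest transcript, first gene over second, for 14 of the 16 gene pairs, ordered by mean in the 8 control pups. Each circle is 1 pup, each red tick the mean of 8, and the vertical line marks equal levels. Grin2b over Grin2a lies between 3.60 and 3.91, and only Pdgfra over Mbp and Gria2 over Gria1 have circles on both sides of the line.

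The control pups resembled each other closely for most genes. The median CV was 7.26% over the 15207 entries with a mean of at least 1 CPM and 5.91% over those with at least 10 CPM, where the quartiles were 4.33 and 7.94%. At 1 to 3 CPM the median was 16.6%, of which counting error alone would give 11.2%, and at 100 to 300 CPM it was 5.08% against 1.19%. By class, ribosomal protein genes at or above 1 CPM had a median CV of 5.72%, entries with a matrix term 9.65%, channel activity 8.05% and long noncoding RNAs 13.6%, the last at a median level of 3.32 CPM. A CV over 20% was found in 978 entries (6.43%) at 1 CPM or more and in 114 entries (1.09%) at 10 CPM or more. Of these 114, 66 overlapped another entry, which is 1.57% of the overlapping entries at that level against 0.768% of the others.

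The steadiest gene was Nploc4, a cofactor in protein degradation, at 83.8 ± 0.705 CPM with a range of 82.6 to 85 CPM. Its CV of 0.841% was below the 1.61% that counting error alone gives, and 10 of the 20 lowest CVs were at or below that level. The 20 steadiest genes were not a fixed set: with 1 pup left out 7 to 14 of them remained among the 20 lowest, and 0 remained after the counting variance was subtracted. Where reads were plentiful, Eef1a1 stayed between 1727 and 1803 CPM (CV 1.45%) and Fam168b between 430.3 and 448 CPM (CV 1.42%). Both lay below the median CV of entries at their levels, which was 5.49% at 1000 CPM or more and 5.10% at 300 to 1000 CPM. Mark3, a kinase of microtubule-associated proteins, ranged from 152 to 158 CPM and Sars, a transfer RNA synthetase, from 147 to 153 CPM.

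**Figure D4:**
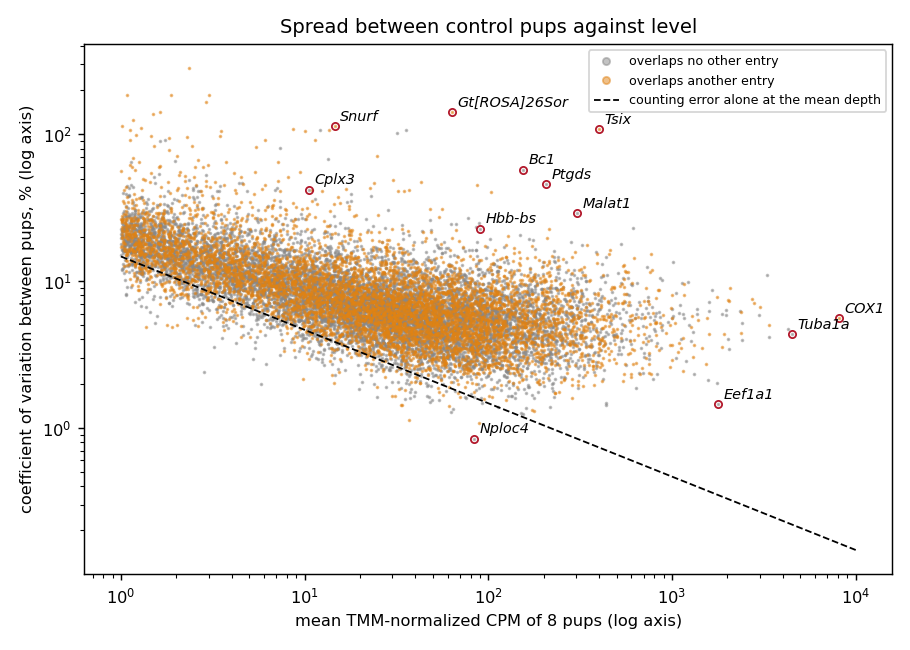
CV between the 8 control pups (%, log axis) against mean TMM-normalized CPM (log axis) for the 15207 entries with a mean of at least 1 CPM, orange where an entry overlaps another. The dashed line is the CV from counting error alone at the mean depth. Ringed are genes named in the text, from Nploc4 (0.841%) below the line to Gt[ROSA]26Sor (141%) at the top.

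The most variable genes were a firmer set, with 16 to 20 of the 20 highest CVs at 10 CPM or more shared when 1 pup was left out. Most of the 20 overlap another entry or lie on the Y chromosome. Ptgds and Cplx3 were among them, but Fmod, Dcn, Slc13a4, Ctgf, Crym, Nptx1 and Sulf1 had lower CVs. Genes of the leptomeninges, the membranes that cover the cortex, varied together. Ptgds, a prostaglandin synthase of meningeal cells, had 95.0 CPM in pup 26, 129 in pup 27, 302 in pup 32, 151 in pup 33, 368 in pup 35, 201 in pup 36, 151 in pup 41 and 251 in pup 42. Pups 35 and 32 were high and pup 26 was low, as they were for the proteoglycan genes Fmod (8.00 to 29.5 CPM) and Dcn (14.4 to 42.1 CPM) and the sulfate transporter Slc13a4 (6.18 to 17.7 CPM). In Dcn the highest value was in pup 32 and in the other 3 genes in pup 35. The 9 meningeal markers summed to 434 ± 92.3 CPM, from 272.6 in pup 26 to 579 in pup 35, and 8 of them were detected at 1 CPM or more. A further 8 leptomeningeal and matrix genes, chosen after their values were seen, summed to 177 CPM in pup 26 and 556 CPM in pup 35, a ratio of 3.14. Astrocyte, mural and endothelial sums were lowest in pup 26 as well, and whether the amount of attached meninges differed was not tested.

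A second group belonged to the deepest cortical neurons of layer 6b and the subplate. Cplx3, a synaptic protein of these cells, ranged from 4.82 CPM in pup 41 to 17.5 CPM in pup 27, with 5.82 CPM in pup 35 as the next lowest. Ctgf, a matrix protein of the same layer, ranged from 8.70 CPM in pup 41 to 26.1 CPM in pup 27, and Nxph4 from 0.976 to 5.25 CPM in the same pups. Pups 41 and 35 were the lowest for all 3 genes. The same 2 pups were lowest for Crym (24.4 and 35.8 CPM against 46.9 to 61.0 CPM), Nptx1 (20.7 and 23.8 CPM against 29.9 to 43.2 CPM) and Sulf1 (7.02 and 9.66 CPM against 13.8 to 18.0 CPM). A list of 10 genes of layers 6 and 6b, chosen after the values were seen, summed to 124 CPM in pup 41 and 254.5 CPM in pup 27. Cux2 and Tbr1, given above, divided the same pups from the rest, and whether the depth of the dissection differed was not tested.

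The 4 globin genes were highest in pup 32, the pup with the fewest reads. Hbb-bs had 135 CPM there and 66.5 to 94.2 CPM in the other 7, and Hba-a1 had 131 CPM against 64.2 to 90.1 CPM. Hbb-bt (104 CPM against 51.7 to 69.4 CPM) and Hba-a2 (95.6 CPM against 44.3 to 67.8 CPM) did likewise, so that pup 32 lay above all others in each. Globin copies are near identical and share reads. Noncoding RNAs were also among the variable ones: Bc1, a small RNA of dendrites, ranged from 45.5 CPM in pup 35 to 281 CPM in pup 33, and Malat1, a nuclear RNA, from 202 CPM in pup 27 to 452 CPM in pup 26. H19, an imprinted RNA of the embryo and meninges, ranged from 7.38 to 27.1 CPM and Igf2, imprinted in the same cluster, from 127 to 292 CPM. Kmt2d, a histone methyltransferase, had 127 CPM in pup 26 and 58.7 to 80.6 CPM in the others.

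**Figure D5:**
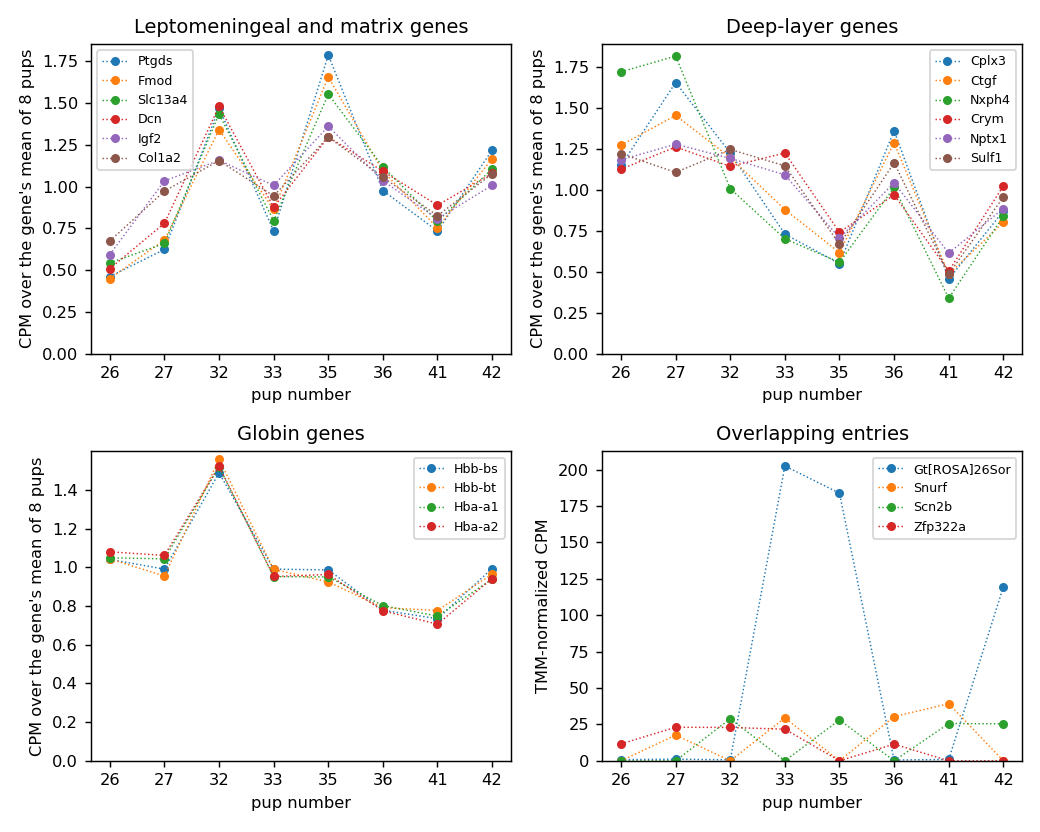
Levels by pup for groups of genes that differ between the 8 control pups: leptomeningeal and matrix genes, deep-layer genes and globins as CPM over the gene's mean of 8 pups, and 4 overlapping entries in TMM-normalized CPM. Dotted lines join the points of 1 gene only to guide the eye, since pup numbers have no order. Ptgds and its group peak in pups 32 and 35, Cplx3 and its group are lowest in pups 35 and 41, the globins are highest in pup 32, and Gt[ROSA]26Sor is high in pups 33, 35 and 42.

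The largest CV of all entries at 10 CPM or more belonged to Gt[ROSA]26Sor, the noncoding gene of the Rosa26 locus into which the Ai27D construct is inserted. It had 203 CPM in pup 33, 184 in pup 35 and 119 in pup 42, and 0.516 to 1.12 CPM in pups 26, 27, 32, 36 and 41. Thumpd3, which overlaps it on the opposite strand, had 18.3 to 22.3 CPM in the first 3 pups and 26.2 to 30.1 CPM in the other 5. The sum of both entries still ranged from 27.3 to 225 CPM, with the same 3 pups above the other 5. The genotype of the Rosa26 alleles of single pups, beyond the common label, was not given in the sources used here.

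Other variable entries overlap a neighbour. Snurf had 0 CPM in pups 26, 32, 35 and 42 and 17.6 to 39.2 CPM in the others. Snrpn, the imprinted splicing gene that shares its transcript, had a CV of 4.12% alone and 4.28% with Snurf added. Scn2b, a sodium channel subunit, had 0 CPM in 4 pups and 25.4 to 28.9 CPM in the other 4, and its sum with Gm10684 on the opposite strand had a CV of 11%, against 41.7% for Gm10684 alone. Zfp322a, a zinc finger gene, had 0 CPM in 3 pups and at most 23.1 CPM, with a CV of 6.48% for the sum with 4930586N03Rik and 21.6% for the latter alone. Aqp4, the water channel of astrocyte endfeet, ranged from 30.8 to 135 CPM, whereas its sum with A830021F12Rik on the opposite strand had a CV of 9.77%, against 40.3% for the latter alone. In these last 3 pairs, but not for Snurf and Snrpn, the sum varied less than either entry. Of 20 entries that were at 10 CPM or more in 1 pup and below 1 CPM in another, 17 overlap another entry and 3 lie on the Y chromosome, with Uty in both counts. Capn11 on chromosome 17, from 0.789 to 18.1 CPM, was in neither.

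Female and male pups were compared across all entries with limma on log2 CPM, with at least 4 of 8 pups above a floor of -5. Of 22939 entries tested, 9 passed an adjusted p of 0.05 (0.0392%), 3 of them higher in females (0.0131%) and 6 lower (0.0262%). Before the adjustment 1459 entries had a p under 0.05. Tsix, antisense to the X inactivation RNA Xist, had 719 to 932 CPM in females and 0.166 to 0.66 CPM in males (adjusted p = 3.11e-09, limma). Xist, on the other strand of the same locus, was listed at 0 in 7 pups and at 0.208 CPM in pup 41, so the reads of the locus stood under Tsix, and which strand they came from cannot be told apart here. Eif2s3x, a translation factor gene that escapes X inactivation, had 105 to 114 CPM in females and 66.2 to 71.4 CPM in males (log2 difference 0.68, adjusted p = 1.02e-05, limma). Its Y-linked partner Eif2s3y had 64.2 to 83.3 CPM in males and at most 0.125 CPM in females. Ddx3y (50.7 to 73.4 CPM in males), Kdm5d (23.6 to 25.4 CPM), Uty (18.4 to 22.1 CPM) and Uba1y (0.289 to 0.721 CPM) were the other Y-linked calls, with the groups apart in each, and all 8 pups matched their sex label. Of these, Ddx3y also had 1.98 to 2.52 CPM in females, and it shares reads with its near-identical X-linked copy Ddx3x only as far as the study's counting split them, which was not tested.

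The remaining calls for sex were Gm15386 and Defb41, which overlap each other. In females both had 2.00 to 2.40 CPM, with identical values, and in males Gm15386 had 0 and Defb41 4.24 to 4.82 CPM. Their difference between the sexes therefore lay in which entry held the reads. Other X-linked genes known to escape inactivation had smaller differences. Kdm5c, a histone demethylase, had a mean of 129.9 CPM in females and 109 CPM in males (log2 difference 0.26, SE 0.0431), with an adjusted p of 0.155 by limma, and Kdm6a had 42.5 and 34.1 CPM (log2 difference 0.32, adjusted p = 0.317 by limma). Neither passed the threshold over all entries.

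Pup numbers in the labels fall into a run from 26 to 33 and a run from 35 to 42, and the labels do not say what the break marks. Sex and run were partly confounded: pups 27, 32 and 33 of the first run were female, and pups 35, 41 and 42 of the second were male. No entry passed an adjusted p of 0.05 between the runs in limma (0%), with 1193 of 22939 entries at an unadjusted p under 0.05. Leaving out pup 27 gave 2 entries and leaving out pup 36, 41 or 42 gave 1 each. With the other factor as covariate, 9 entries passed for sex and 0 for the runs.

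Principal components summarized how the pups differed. Over all 15207 entries the first component took 27.8% of the variance and separated the sexes, with Tsix, Eif2s3y, Kdm5d, Zfp322a, Uty and Scn2b among its leading entries, and the second took 17.4%. Because the first is led by sex and by overlapping entries, the components were also computed, after this was seen, on 5996 autosomal entries at 10 CPM or more that overlap no other. There the first 3 took 34.8, 22.4 and 18.1%. The first ran from pup 27 (score -0.476), where the transcription factor gene Jund (31.0 CPM), Bmyc (18.7 CPM) and the neuropeptide gene Vgf (46.4 CPM) were highest, to pup 41 (score 0.542), where these were lowest (15.7, 9.34 and 23.0 CPM) and Vip was highest (19.1 CPM). Across the 8 pups it correlated with the slope of log2 level on GC content of the transcript, at Pearson's r = -0.981 (exact permutation p = 0.000149, adjusted 0.00179 over 12 correlations) and Spearman's rho = -0.952 (exact permutation p = 0.00114, adjusted 0.0137). Without the 2 pups farthest from the median slope r was -0.977. Both measures come from the same values, and of the other 11 correlations none had an adjusted p under 0.05 by the exact permutation test. The second component set pup 26 (score 0.789, others -0.44 to 0.264) apart, with Kmt2d and Malat1 against Ptgds, Fmod, Dcn and Gjb6, and the third set pups 35 and 41 (0.677 and 0.481) apart, with Bc1, Cplx3, Ctgf, Crym, Nptx1 and Sulf1.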

How the data were processed

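Total RNA of flash-frozen cortices was made into libraries with a stranded mRNA kit. The study trimmed adapters, dropped reads under 50 bases, used SeqMan NGen for alignment to GRCm38 (mm10) and ArrayStar for the number of reads of each gene, and TMM factors were computed by the authors in edgeR. The deposited values, by the authors, are linear TMM-normalized CPM (read counts scaled to a common library total, unit recorded as other because of decimal commas), with an empty cell for no reads. The 8 columns of Avil-ChR2 pups were not used here. Dividing by the smallest step of each column gave whole reads for 100% of values up to 20000 reads, within 0.05 of a whole number.

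Levels were described as mean ± SD over 8 pups. Genes were annotated with GENCODE and RefSeq, 94.9% of entries with a mean of at least 1 CPM having a transcript length, and promoters came from RefSeq GRCm38.p6. Sex and runs of pup numbers were tested with limma 3.58.1 (R 4.3.3) on log2 CPM, with lower or missing values set to -5, at least 4 of 8 pups above it and Benjamini-Hochberg adjustment. The fits were tested on simulated data. P-values measure the spread between these pups only. Named genes were the 30 highest means, the 20 highest and 20 lowest CVs at 10 CPM or more, all calls, the 15 largest loadings of each component, pairs, list members and the 10 highest levels per kb. Some of these genes and pairs are not reported here. The members and lists were chosen with earlier results of these data known. Numpy 2.4.6, pandas 2.3.3 and scipy 1.17.1 were used.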

Additional observations from a re-analysis of the deposited data

Results flagged for a closer look

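In each set of 8 values the highest or lowest was set apart where its gap to the nearest other exceeded, as a share of their range, Dixon's 95% critical value. This held for 23 of 208 values examined (11.1%). The genes were in part chosen for large spread or with earlier results known, and the values are not independent. The share is therefore not set against the rate of about 1 in 20 that chance gives. Pup 26 stood apart in 9 of them. It was lowest for Enpp2 (66.3 CPM, others 85.5 to 101), Cx3cr1 (16 CPM, others 21.2 to 25.2), Glul (385 CPM, others 469 to 519.8), the presynaptic genes Syt1 (1039 CPM, others 1129.8 to 1187) and Syp (644 CPM, others 719 to 787), the astrocyte sum (2419 CPM) and the choroid plexus sum (72.7 CPM), which is mostly Enpp2. It was highest for Kmt2d (127 CPM) and Hoxa3 (1.09 CPM, others at most 0.162).

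Pup 32 stood apart in 6: its reads (30549126), the globins Hbb-bs (135 CPM), Hbb-bt (104 CPM), Hba-a1 (131 CPM) and Hba-a2 (95.6 CPM), and the sum of blood cell genes that these make up (465 CPM, others 227 to 322). Pup 35 stood apart for Camk2b (1082 CPM) and for Dlg3 over Dlg4 (log2 ratio -1.56, others -1.46 to -1.38), and pup 36 for Wdr11 (64.4 CPM, others 62.0 to 63.0) and Gm30977, which was at 0 there. Gm30977 overlaps Npcd, which was at 641 CPM in that pup and 571 to 644 CPM in the others. Pup 41 stood apart for the sum of immediate early genes (225 CPM) and for Xist (0.208 CPM, others 0), and pup 27 for the olfactory bulb sum (11.9 CPM) and for Eomes within it (2.03 CPM, others at most 0.124).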

How the results depend on the processing

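Other scalings (CPM without TMM, median-of-ratios size factors) did not move the number of entries with a CV over 20% past the limit set for a change. Shares and ratios within a pup cancel any scaling of the pup, so these scalings could not test them. The comparisons of sex and of runs were not refitted with them. With the mitochondrial genome and entries of no biotype left out of the total, shares rose to 2.15% for long noncoding RNAs, 0.490% for ribosomal proteins, 17.7% for synapse, 13.4% for axon, 19.7% for cytoskeleton, 6.75% for transcription factor, 3.33% for channel and 3.14% for immune terms, by construction. Gria2 over Gria1 reversed to -0.33 with the length of all exons together. Leaving out 1 pup, it ranged from 0.11 to 0.17 and Pdgfra over Mbp from 0.21 to 0.30, each losing its call in 6 of 8 cases, where 7 pups allow fewer sign flips. Entries with a CV over 20% numbered 978, but 447 by the SD of log2(CPM + 1), 114 at 10 CPM or more, 12734 without a filter and 516 without overlapping entries (the last chosen after seeing the data). Of the 20 steadiest genes 13 were shared without TMM, and 0 within females, 0 within males, 3 within pups 26 to 33 and 1 within pups 35 to 42. Of the 20 most variable 14 to 15 were shared in these subsets. The leading component took 34.8% in the autosomal set and 26.7 to 31.8% with 1 pup left out. Calls for sex numbered 5 without overlapping entries, a choice made after seeing the data, and 9 to 12 with 1 pup left out. Between the runs 5 entries passed without a filter and 0 to 2 with 1 pup left out. Tests with edgeR and DESeq2 were planned and not run. No paired analysis was possible because the report compares no groups that share pup numbers. Counting error limits entries near 1 CPM, and most in pup 32.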
